A study of Mus musculus with 4 samples.

Results

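Round spermatids are the haploid germ cells that follow the meiotic divisions and precede nuclear condensation. Here they were taken from the single-cell RNA-seq (scRNA-seq) of mouse testes and were chosen by their own unique molecular identifiers (UMIs, each standing for 1 captured RNA molecule), under a rule on 12 genes. A barcode needed at least 1000 detected genes and at most 10% of UMIs from mitochondrial genes. It also needed at least 4 of the 6 markers Acrv1, Spaca1, Chd5, Sun5, Tex36 and Ccer1, at a sum of at least 3 UMIs per 10000. Less than 3% of its UMIs could come from Tnp1, Tnp2, Prm1 and Prm2, fewer than 1 UMI per 10000 from Ccna1, and at most 1 UMI from Vim. The rule found 3649 round spermatids among 22924 testis barcodes that passed the limits on genes and mitochondrial UMIs, out of 45878 such barcodes in all 4 libraries.

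The study dissociated testes of 28-day-old mice (2 libraries, testis replicates 1 and 2) and 28-day testicular organoids, or TOs, which were reassembled from testis cells of 6 dpp (days postpartum) pups and cultured (2 libraries, TO replicates 1 and 2). The methods of the study name ICR mice, without a transgene, for these experiments, and the cells of both tissues were loaded unsorted. The number of animals behind each testis library is not given in the sources used here, although the study calls the libraries biological replicates. A label on dissociation names a different day of TO culture than the design text, which is followed here. Testis replicate 1 held 77016449 UMIs in 12179 barcodes and testis replicate 2 held 74988295 UMIs in 11826 barcodes.

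After meiosis, a spermatid builds a sperm cell without dividing again. The Golgi apparatus forms the acrosome, a cap of enzymes and membrane proteins that acts at fertilization, the flagellum grows from the centriole, and the manchette, a sleeve of microtubules, shapes the head. Transcription stops when transition proteins and then protamines replace the histones, so many messages for late sperm parts are made in round spermatids, bound by RNA-binding proteins and translated later. The X chromosome is silenced in pachytene spermatocytes, and part of its genes is transcribed again after meiosis.

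The rule counted 2495 round spermatids in testis replicate 1, or 21.1% of 11801 passing barcodes (exact 95% Clopper-Pearson interval 20.4 to 21.9). In testis replicate 2 it counted 1154, or 10.4% of 11123 (interval 9.81 to 10.96). The intervals cover counting error only. The share in replicate 1 was thus higher than that in replicate 2, whereas elongating spermatids, cells with at least 10% of UMIs from Tnp1, Tnp2, Prm1 and Prm2, numbered 103 in replicate 1 and 2786 in replicate 2. The testis libraries had 30 barcodes in common, of which 1 was a round spermatid in both.

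The members used every marker to a different degree. All 6 markers were detected in 929 members (37.2%) of replicate 1 and 321 (27.8%) of replicate 2, and exactly 4 in 887 (35.5%) and 484 (41.9%). Just outside the rule, 1336 and 666 barcodes met every other condition with 3 markers, at a median of 1933 and 2063 UMIs. The Ccna1 limit alone left out 1251 and 674 barcodes, and the Vim limit alone left out 160 and 37. Members with a marker sum of 3 to 4 UMIs per 10000 numbered 8 and 2, and 10 and 6 barcodes fell between 2 and 3. With 2% to 3% of UMIs from the transition protein and protamine genes there were 61 and 109 members, against 71 and 52 barcodes with 3% to 4%. A sum under 10 was seen in 3.21% and 2.34% of the members, so most lay far from the limit on the marker sum, and more barcodes lay next to the limit on the number of markers and outside the Ccna1 limit. In replicate 2 the limit on transition protein and protamine UMIs also took the barcodes from 2456 to 1876, and the Ccna1 limit then to 1191.

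Of the 6 markers, Acrv1 encodes a protein of the acrosomal vesicle, and Spaca1 encodes an acrosomal membrane protein. Chd5 is a chromatin remodeller of spermatids, Sun5 a nuclear envelope protein that joins the sperm head to the tail, and Ccer1 a germ-cell protein of the histone-to-protamine exchange. By GENCODE vM21 (GRCm38), Acrv1 lies at chr9:36693220-36698843 on the plus strand, Chd5 at chr4:152338651-152390194 on the plus strand and Ccer1 at chr10:97693059-97694923 on the plus strand. Spaca1 lies at chr4:34024874-34050191, Sun5 at chr2:153856188-153871084 and Tex36 at chr7:133587024-133602158, all on the minus strand. The sequences before their start sites are shown because these genes chose the cells, and because CREM and RFX proteins, regulators of spermatid genes, bind the motif TGACGTCA and the X-box. RefSeq (GRCm38.p6) gave a start site for 5 of the 6 markers. The windows were chr9:36692970-36693219 (plus strand), chr4:152338401-152338650 (plus strand) and chr2:153871085-153871334 (minus strand), which are the 250 bases before the start. For chr4:34050113-34050142 and chr7:133602117-133602146 (both minus strand) 30 bases are shown, which lie before the RefSeq start site and inside the longer GENCODE gene. These 30 bases are the part that holds the marked matches, and the rest of those 250 bases is not printed. The density of matches can therefore not be compared between the printed stretches. Capitals mark TGACG or GTTGCC on either strand, the core of the CREM motif and the beginning of the X-box.
Acrv1: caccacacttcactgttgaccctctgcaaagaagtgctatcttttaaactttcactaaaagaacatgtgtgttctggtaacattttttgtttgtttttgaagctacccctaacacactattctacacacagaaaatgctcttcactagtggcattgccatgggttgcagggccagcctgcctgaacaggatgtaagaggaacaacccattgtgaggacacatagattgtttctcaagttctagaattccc
Chd5: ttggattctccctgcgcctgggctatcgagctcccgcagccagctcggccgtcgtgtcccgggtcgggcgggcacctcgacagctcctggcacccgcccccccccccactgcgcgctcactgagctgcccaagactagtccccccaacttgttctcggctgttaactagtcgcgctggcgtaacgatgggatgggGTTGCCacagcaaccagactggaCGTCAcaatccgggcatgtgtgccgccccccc
Sun5: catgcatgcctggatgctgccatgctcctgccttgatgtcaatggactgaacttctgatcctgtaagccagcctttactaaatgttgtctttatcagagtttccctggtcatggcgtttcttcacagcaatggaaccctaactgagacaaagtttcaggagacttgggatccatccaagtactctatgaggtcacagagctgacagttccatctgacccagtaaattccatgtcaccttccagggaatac
Spaca1: gaatggggTGACGcgcggTGACGcctcaat
Tex36: cctctctgcccaGGCAACagctgagaagat

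In these windows, Spaca1 carried TGACG at 69 and 59 bases before the start, and Chd5 carried it on the opposite strand at 32 bases. GTTGCC was found in Chd5 at 55 bases and, on the opposite strand, in Tex36 at 19 bases. Acrv1 and Sun5 held neither in 250 bases. TGACG occurred in the 250 bases before the start of 19.8% of 27025 RefSeq genes and GTTGCC in 11.8%, on either strand, so both are common. The full TGACGTCA, which contains TGACG, occurred in 1.77%. These matches are descriptions of letters and do not show binding.

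Levels are given as CPM, UMIs scaled to 1000000 of the UMIs summed over the cells of a class in a library, for replicate 1 and then replicate 2. UMIs of this assay come from 3' ends of transcripts, so that levels of different genes are not a measure of their relative abundance, and their order is given only to choose genes for description. For comparison, 374 and 584 Ccna1 spermatocytes (Ccna1 at least 1 UMI per 10000, at least 3 of 5 meiotic markers and fewer than 4 of the 6 spermatid markers) and the elongating spermatids were taken from the same libraries. Leydig cells (484 and 205) and Sertoli cells (277 and 126), which should not transcribe spermatid genes, served as a background level for spermatid RNA from other sources, such as free RNA of the suspension or doublets. The classes were cut from the UMIs of the same cells, so differences between them are descriptions without a test.

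Acrv1 stood at 891 and 880 CPM in the round spermatids, against 64.9 and 24.2 CPM in the spermatocytes and 123 and 26.0 CPM in the Leydig cells. Spaca1 stood at 792 and 957 CPM, against 75.5 and 49.5 CPM in the spermatocytes. Tex36 stood at 822 and 1140 CPM, against 64.6 and 43.4 CPM. These genes chose the cells, and each was as high or higher in the Leydig cells than in the spermatocytes of replicate 1, so the spermatocyte levels there do not exceed the background. Sun5 had 288 and 249 CPM, Chd5 had 174 and 224 CPM and Ccer1 had 466 and 455 CPM in the round spermatids. In the elongating spermatids Chd5 was still at 154 and 181 CPM, whereas Sun5 was at 50.4 and 24.8 CPM. After thinning every cell to 1500 UMIs, Acrv1 was detected in 74.7% and 74.96% of the round spermatids (93.99% in replicate 1 without thinning) and in 9.09% and 2.93% of the Leydig cells, whose median depths were 6554 and 11173 UMIs. The Leydig cells that met both conditions on the markers made up 10.7% and 3.90% of that class, and the Sertoli cells 24.2% and 8.73%. Among the Leydig cells of replicate 1, Acrv1 was at 97.5 CPM under 5000 UMIs and at 256 CPM at 10000 UMIs or more, and 15.9% of these Leydig cells and 25.6% of the Sertoli cells were among the highest Scrublet doublet scores. Free RNA and doublets were not told apart as sources of the spermatid RNA in somatic cells.

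**Figure D1:**
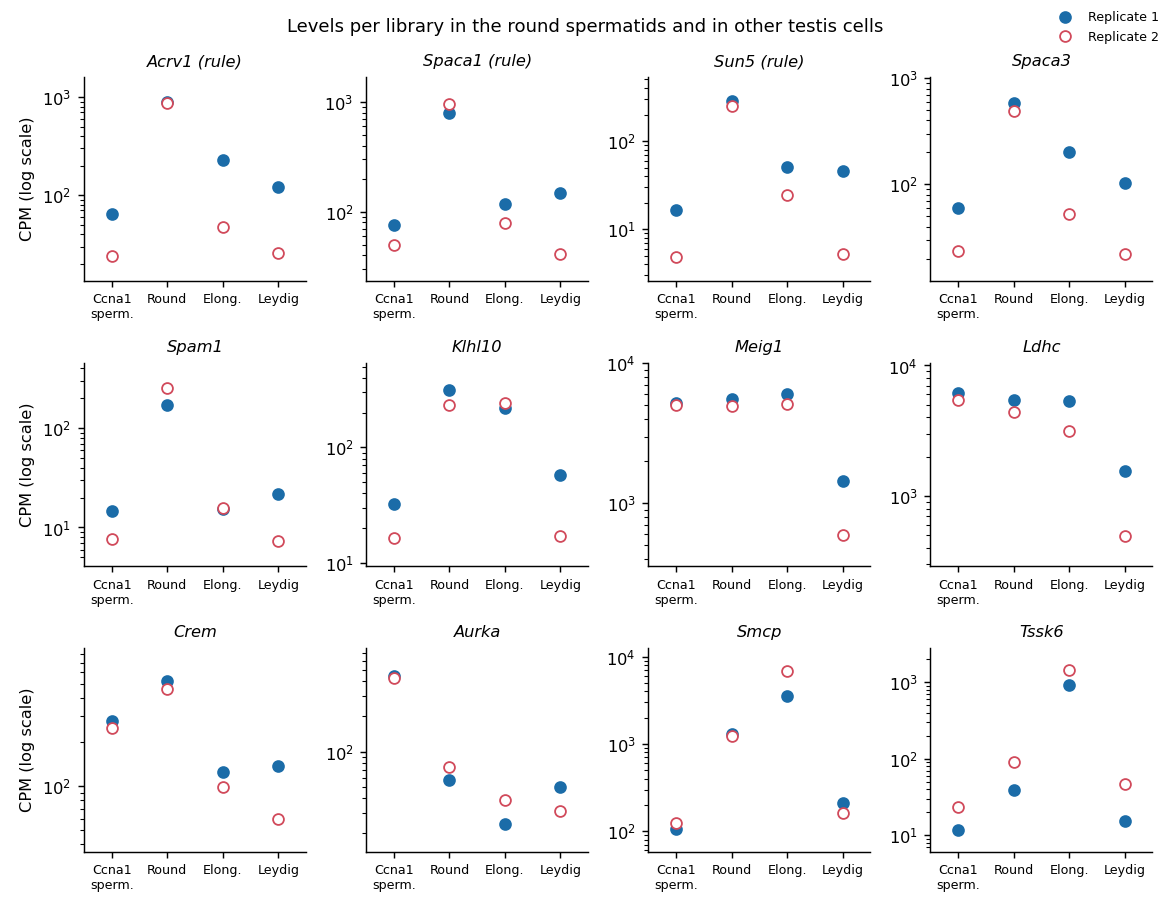
Levels of 12 genes (CPM of summed UMIs, log scale) in Ccna1 spermatocytes, round spermatids, elongating spermatids and Leydig cells, with 1 point per testis library (filled, replicate 1, open, replicate 2). Acrv1, Spaca1 and Sun5 chose the cells. Spam1 peaked in round spermatids at 173 and 255 CPM, Aurka was highest in the spermatocytes at 441 and 429 CPM, and Tssk6 was highest in the elongating spermatids at 916 and 1448 CPM.

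The genes with the most UMIs in the round spermatids, none of them used by the rule, held both germ-cell genes and broadly expressed genes. Meig1, a manchette protein needed to build the sperm, had 5572 and 4963 CPM, and Ldhc, the lactate dehydrogenase of germ cells, had 5484 and 4372 CPM. Fabp9, a lipid-binding protein of the testis, reached 3108 and 3345 CPM, and Ropn1l, a flagellar protein, 3074 and 3264 CPM. Meig1 (5192 and 5001 CPM) and Ldhc (6172 and 5478 CPM) were already as high in the spermatocytes. Of the broadly expressed genes, Ybx1, an mRNA-binding protein, had 2238 and 2734 CPM, against 1150 and 1239 CPM in the Leydig cells. H3f3b, which encodes the replacement histone H3.3, differed, with 2468 and 2730 CPM in the round spermatids against 1228 and 1014 CPM in the spermatocytes and 378 and 314 CPM in the elongating spermatids. Gtsf1, a factor of the piRNA pathway, had 2293 and 2417 CPM, against 1050 and 1071 CPM in the spermatocytes. Leydig cells held 1433 and 598 CPM of Meig1 and 1550 and 495 CPM of Ldhc, whose source was not tested.

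To describe what sets round spermatids apart from cells that had not finished meiosis, genes were called where the CPM differed by at least 2-fold in the same direction in both libraries, with at least 10 CPM in either class and rule genes left out. Of 9719 genes, 2577 (26.5%) were higher in the round spermatids and 2472 (25.4%) were lower. The median gene differed by -0.33 in each library on the log2(CPM + 1) scale, which understates the difference of low genes. With edgeR's TMM factors, 2925 genes (30.1%) were higher and 1661 (17.1%) lower, the share of calls in the higher direction was 63.8% in place of 51.0%, and the medians became 0.16 and -0.24. With the mean of per-cell values, 24.2% were higher and 20.4% lower. Among cells under 5000 UMIs, 18.7% were higher and 17.2% lower. List medians below are to be read against these values, and list counts against 26.5% and 25.4%, or, in cells under 5000 UMIs, against 18.7% and 17.2%.

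Genes of the acrosome were higher in the round spermatids for 19 of 36 compared genes and lower for 4, with medians of 2.34 and 3.18 (log2). Spam1, a hyaluronidase of the sperm surface and acrosome, stood at 173 and 255 CPM against 14.7 and 7.58 CPM in the spermatocytes. Izumo1, the sperm protein that binds the egg receptor Juno, stood at 147 and 175 CPM against 20.02 and 8.503 CPM. Zp3r, an acrosomal matrix protein that binds the zona pellucida, stood at 277 and 373 CPM against 26.4 and 18.5 CPM. In Spam1, Izumo1 and Zp3r, the values of the spermatocytes were below the Leydig level in replicate 1 and under 2-fold above it in replicate 2 (Leydig cells, 21.9 and 7.30 CPM for Spam1, 31.2 and 4.87 CPM for Izumo1). Spaca3, Spaca4, Spaca7, Lyzl4, Lyzl6, Eqtn, Tmem190 and Spata46 were higher as well, with Spata46 at 960 and 703 CPM against 94.3 and 35.7 CPM. By contrast, Dpy19l2, Spata16, Gopc and Adam2 were lower. Dpy19l2, which holds the acrosome to the nucleus, stood at 95.3 and 132 CPM against 210 and 278 CPM, and Spata16, a Golgi protein of acrosome formation, at 254 and 234 CPM against 560 and 502 CPM. Acr, the protease acrosin, was at 213 and 189 CPM against 158 and 142 CPM, and Spink2, an inhibitor of acrosomal proteases, at 2313 and 2490 CPM against 2714 and 3229 CPM, so both were at like levels on either side of the meiotic divisions. With TMM factors, 19 acrosome genes were higher and 1 lower, and among cells under 5000 UMIs 17 and 1 of 36, with medians of 0.997 and 1.03.

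Of the genes for the head cytoskeleton and nuclear shape, 14 of 22 were higher and 1 lower, with medians of 1.74 and 2.00, and among cells under 5000 UMIs 6 of 21 were higher, with medians of 1.02 and 0.84. Capza3, an actin-capping protein, stood at 455 and 404 CPM against 44.9 and 28.5 CPM, Cylc2, a cylicin of the perinuclear theca, at 449 and 547 CPM against 43.9 and 29.9 CPM, and Actrt2, an actin-related protein of the same structure, at 360 and 278 CPM against 35.7 and 24.0 CPM. The lower gene was Cntrob, a centrosomal protein, at 1.53 and 3.03 CPM against 15.7 and 17.6 CPM. For the flagellum and axoneme the picture was split, with 11 of 44 genes higher and 11 lower, both close to the background share, and medians of 0.06 in each library. The fibrous sheath genes Ropn1 (1298 and 1429 CPM against 149 and 94.8 CPM), Cabyr, Akap3 and Akap4 and the tektins Tekt2 and Tekt4 were among those higher. The axonemal genes Dnah8, a dynein heavy chain (129 and 178 CPM against 668 and 897 CPM), Rsph1, a radial spoke protein (1194 and 1262 CPM against 3843 and 4876 CPM), Spag6l, Ccdc39, Ccdc40 and Dnah17 were among those lower. With TMM factors 13 were higher and 8 lower, and among cells under 5000 UMIs 3 were higher and 1 lower, both below the background at that depth.

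The CatSper channel is the calcium channel of the flagellum. Of its 13 genes, 5 were higher and 6 lower, and with TMM factors 5 and 5. The pore subunit genes Catsper3 (233 and 223 CPM against 18.8 and 8.27 CPM), Catsper4 and Catsper1 were higher together with Efcab9, a calcium-binding partner (309 and 355 CPM against 39.8 and 17.9 CPM), and Tmem249. The pore subunit gene Catsper2 (98.9 and 124 CPM against 233 and 289 CPM) and the auxiliary subunit genes Catsperb (40.99 and 92.3 CPM against 150 and 200 CPM), Catsperd, Catspere2, Catsperg1 and Catsperg2 were lower. The lower calls depended on the setting, with 5 genes higher and 2 lower for the mean of per-cell values, and 4 higher and 0 lower among cells under 5000 UMIs.

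Of 18 transcription regulators, 4 were higher and 5 lower (TMM: 5 and 2), with medians of 0.04 and 0.33, again close to the background. Fhl5, the coactivator of CREM also called ACT, stood at 322 and 328 CPM against 32.2 and 17.7 CPM, and Kif17, a kinesin that carries ACT out of the nucleus, at 91.7 and 75.5 CPM against 13.2 and 6.66 CPM. Crem itself was at 525 and 459 CPM against 278 and 251 CPM, above the spermatocytes in both libraries but under 2-fold. Tbpl1, which encodes the TBP-like factor TRF2, was at 732 and 909 CPM against 1212 and 1834 CPM. The genes lower were Mybl1, the meiotic regulator A-MYB (9.02 and 11.7 CPM against 60.1 and 116 CPM), Tcfl5, Gtf2a1, Zfp541 and Kctd19. Sox5 (390 and 451 CPM against 38.5 and 26.8 CPM) was higher too, but Leydig cells also held 220 and 204 CPM of it.

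Chromatin genes outside the rule were higher for 7 of 22 and lower for 8 (TMM: 7 and 6). Among cells under 5000 UMIs, 2 of 23 chromatin genes were higher and 6 lower. Hils1, a histone H1-like protein of spermatids, stood at 1022 and 965 CPM against 113 and 62.2 CPM, H1fnt, another spermatid linker histone, at 184 and 291 CPM against 20.8 and 32.2 CPM, and Cdyl, a chromodomain protein, at 265 and 286 CPM against 29.2 and 12.8 CPM. H2afx, whose product marks the silenced sex chromosomes of spermatocytes, was at 50.0 and 50.5 CPM against 140 and 160 CPM. Kat5, a histone acetyltransferase, was also lower, at 15.6 and 13.9 CPM against 72.5 and 72.4 CPM. Messages of late spermatid products, listed for sperm parts that are translated in elongating spermatids, were higher for 22 of 24 genes and lower for 0, with medians of 2.91 and 3.21. Smcp, the mitochondrial capsule protein, stood at 1295 and 1233 CPM against 107 and 124 CPM, Prm3 at 868 and 604 CPM against 90.2 and 57.9 CPM, and Oaz3, the antizyme of the testis, at 469 and 357 CPM against 60.3 and 39.5 CPM. Odf2 and Pgk2 were the other 2 genes compared and differed by under 2-fold in a library. Among cells under 5000 UMIs, the depth at which the spermatocytes also held many of these messages, 5 of 26 late product genes were higher, close to the 18.7% of all genes at that depth.

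Genes of meiotic prophase and division were lower for 16 of 29 and higher for 4, with medians of -1.28 and -1.49 (TMM: 14 lower, 5 higher). The division kinases Aurka (57.0 and 74.5 CPM against 441 and 429 CPM) and Cdk1 (20.4 and 38.8 CPM against 153 and 269 CPM), the axis gene Hormad1 (37.3 and 42.8 CPM against 161 and 259 CPM) and Cks2 were lower. In the Leydig cells, Aurka was at 50.4 and 30.8 CPM, close to its level in the round spermatids in replicate 1 only. The 4 genes higher were Syce2 (562 and 625 CPM against 131 and 102 CPM) and Syce3, which encode parts of the synaptonemal complex, Rec8, a meiotic cohesin (59.8 and 45.3 CPM against 8.36 and 4.02 CPM), and Cdc25c, a phosphatase of cell division. Other genes of the same structures went the other way, as Sycp2 (60.7 and 77.3 CPM against 223 and 289 CPM) and Tex12, which were lower. With the mean of per-cell values 1 of 29 meiotic genes was higher and 16 lower, and among cells under 5000 UMIs 0 of 30 were higher and 15 lower.

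Of 23 genes for the isozymes of energy metabolism, 7 were higher and 3 lower. Gapdhs, the sperm glyceraldehyde phosphate dehydrogenase, stood at 471 and 488 CPM against 59.6 and 66.6 CPM, and the sperm aldolase Aldoart2 at 545 and 417 CPM against 39.3 and 22.2 CPM. The glucose transporter Slc2a3 (83.5 and 117 CPM against 671 and 914 CPM) and the germ-cell ADP/ATP carrier Slc25a31 were lower. For the proteasome and ubiquitin genes of spermatids, 6 of 20 were higher, among them Klhl10, a partner of the ubiquitin ligase Cul3 (313 and 236 CPM against 32.2 and 16.2 CPM), and 1 was lower, Psma8, the germ-cell proteasome subunit (62.2 and 37.6 CPM against 212 and 167 CPM). Of 24 genes for RNA storage and the chromatoid body, 3 were higher and 4 lower. Paip2, an inhibitor of translation that binds the poly(A)-binding protein, was higher (631 and 754 CPM against 170 and 164 CPM), and Piwil2 was lower. The shares of these 3 lists that were called were at or below the background of 26.5% and 25.4%, except for the 7 of 23 isozymes and 6 of 20 ubiquitin genes that were higher, which lay slightly above it. With TMM factors 8 of 23 isozymes and 7 of 20 ubiquitin genes were higher, beside 30.1% of all genes. Among cells under 5000 UMIs, 4 of 24 isozymes, 2 of 20 ubiquitin genes and 0 of 24 RNA storage genes were higher, each below the 18.7% of all genes.

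**Figure D2:**
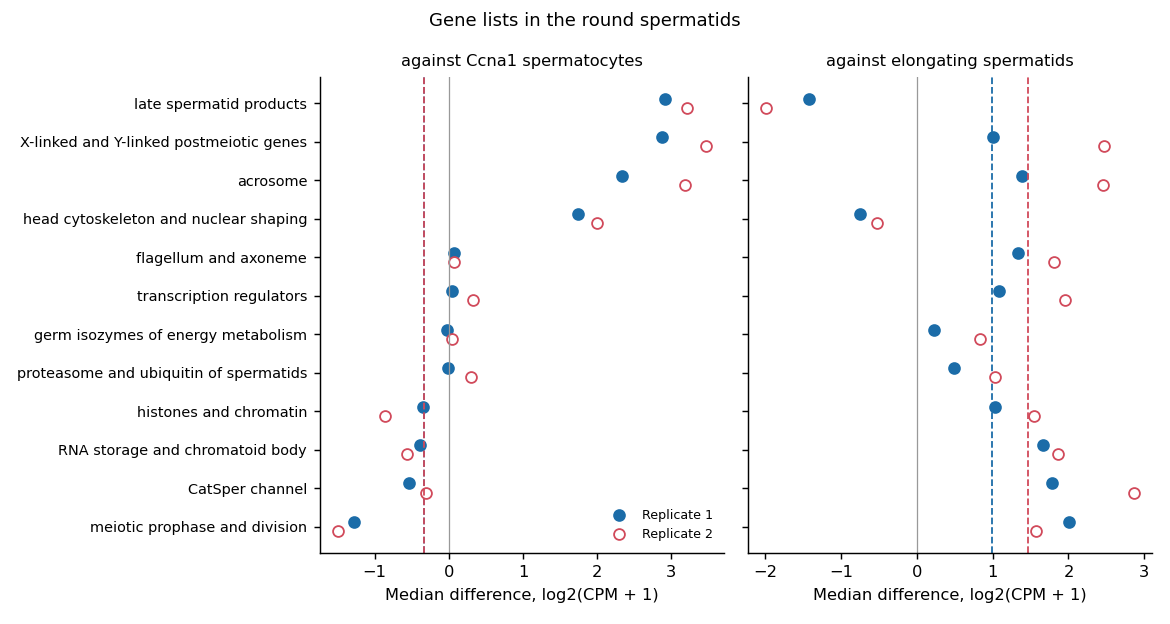
Median difference of 12 gene lists on the log2(CPM + 1) scale, round spermatids against Ccna1 spermatocytes (left) and against elongating spermatids (right). Each point is 1 testis library, and dashed lines give the median of all genes compared in that library. Late spermatid products lay at 2.91 and 3.21 against the spermatocytes and at -1.42 and -1.98 against the elongating spermatids.

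The largest differences from the spermatocytes fell on genes with little known role in spermatids. Vmn2r7, a gene of the vomeronasal receptor family, stood at 98.7 and 135 CPM against 1.77 and 2.30 CPM, Cntn5, a contactin, at 87.0 and 99.8 CPM against 1.52 and 2.64 CPM, and Lrrc4c, a synaptic adhesion gene, at 83.7 and 98.1 CPM against 2.28 and 0.919 CPM. Hyal5, a sperm hyaluronidase, followed with 104 and 133 CPM against 3.55 and 3.56 CPM. Of the 15 genes with the largest differences, others included Vav3, Agbl1 and Iqca1l, and the rest were mostly gene models without a name. In the opposite direction, Gmnn, the replication inhibitor geminin (22.3 and 26.1 CPM against 238 and 262 CPM), Pabpc6, a poly(A)-binding protein gene (51.0 and 79.3 CPM against 551 and 857 CPM), and Dnah2, an axonemal dynein (9.76 and 9.85 CPM against 114 and 107 CPM), led the named genes together with Rassf1, Tcam1, Bcl2l12 and Cdc42ep3.

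Among the genes compared, the 250 bases before the start held TGACG in 24.4% of the 1869 genes higher in round spermatids that had a RefSeq promoter and in 31.9% of the 1928 lower, beside 30.8% of all 7474 compared. GTTGCC was found in 18.03% of those higher and 11.6% of those lower, beside 14.6%. These shares are descriptions without a test.

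Against the elongating spermatids, the next step of the lineage, 3989 of 8537 genes (46.7%) were higher in the round spermatids and 690 (8.08%) lower, with medians of 1.00 and 1.47. Without replicate 2, 1495 genes were lower. The transition protein and protamine genes take at least 10% of the UMIs of every elongating spermatid by the rule. With these 4 genes left out of the CPM, 3404 genes were higher and 833 lower, with medians of 0.77 and 1.20. With TMM factors, 1601 genes (20.1%) were higher and 1260 (15.8%) lower, the share of calls in the higher direction was 56.0% in place of 85.3%, and the medians were 0.31 and 0.29. With the mean of per-cell values 49.4% were higher and 6.52% lower, and among cells under 5000 UMIs 41.9% and 5.42%. Replicate 1 had 103 elongating cells with 1031884 UMIs, so low genes are poorly counted there.

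The late spermatid products were lower in the round spermatids for 15 of 26 genes and higher for 0, with medians of -1.42 and -1.98, and with TMM factors for 21. Smcp stood at 1295 and 1233 CPM against 3549 and 6791 CPM in the elongating spermatids, Gapdhs at 471 and 488 CPM against 1651 and 2831 CPM, and Tssk6, a kinase of sperm formation, at 38.7 and 90.5 CPM against 916 and 1448 CPM. Messages such as Smcp and Gapdhs were therefore between the spermatocyte and the elongating level, whereas Car2, a carbonic anhydrase, was nearly limited to the elongating cells, at 5.41 and 23.4 CPM against 446 and 961 CPM. The ketone-body enzyme genes Oxct2a and Oxct2b, which share sequence and may exchange reads, were also among the 10 genes furthest below the elongating level, Oxct2a at 5.51 and 16.8 CPM against 290 and 534 CPM.

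Acrosome genes were higher than in the elongating spermatids for 23 of 35 and lower for 1, Fam71f1. Spam1 was among those with the largest differences, with 173 and 255 CPM against 15.5 and 15.8 CPM, and Zpbp, a zona pellucida-binding protein, stood at 535 and 551 CPM against 67.8 and 70.3 CPM. With TMM factors 11 were higher and 2 lower. Meiotic genes were higher for 21 of 27 and RNA storage genes for 17 of 25, beside 3989 of 8537 of all genes. With TMM factors, 6 of 25 meiotic genes and 5 of 24 RNA storage genes were higher, beside 1601 of 7983 of all genes. Under that scaling both lists thus lay near the share of all genes. Pabpc1, the poly(A)-binding protein, stood at 1429 and 1383 CPM against 209 and 196 CPM. Of the head genes, 3 were higher and 4 lower of 21 on CPM, and 0 and 10 with TMM factors, so the size of the difference depended on the scaling. Over all genes, 690 of 8537 were lower on CPM and 1260 of 7983 with TMM factors. On either scaling the head genes lay below the share of all genes that were higher and above the share that were lower. Of the genes outside the lists, Agbl1 (166 and 314 CPM against 9.69 and 8.68 CPM), Tnrc18 (128 and 149 CPM against 4.85 and 6.75 CPM) and Swt1 (135 and 177 CPM against 7.75 and 10.5 CPM) were among the 10 furthest above the elongating level. Sertoli cells also held Agbl1 (96.5 and 78.3 CPM) and Swt1 (95.4 and 96.1 CPM).

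X-linked genes took 1.43% and 1.14% of the UMIs of the round spermatids. The share was 0.451% and 0.216% in the spermatocytes, 2.33% and 1.38% in the elongating spermatids, 2.71% and 2.89% in the Leydig cells and 3.40% and 4.01% in the Sertoli cells. In each library the round spermatids thus lay above the spermatocytes and below the other classes. Of 204 X-linked genes compared with the spermatocytes, 162 (79.4%) were higher and 2 lower, against 25.3% higher and 26.0% lower of 9479 autosomal genes. With TMM factors 168 of 209 were higher, and with the mean of per-cell values 117 of 252 were higher and 28 lower. Tsga8, a testis-specific gene and the X-linked gene with the most UMIs, stood at 1065 and 689 CPM against 144 and 61.4 CPM in the spermatocytes. Slxl1, of the Slx family that competes with Y-linked Sly, stood at 471 and 446 CPM against 67.4 and 36.2 CPM, and Spaca5, a lysozyme-like acrosome gene, at 144 and 135 CPM against 14.5 and 5.97 CPM. Slxl1 belongs to a multicopy family, so its reads may be divided among copies. Of the listed X-linked and Y-linked postmeiotic genes, 18 of 19 compared were higher and 0 lower, among them the Y-linked Zfy2 (25.6 and 21.2 CPM against 7.097 and 4.37 CPM). Among cells under 5000 UMIs, 5 of 20 were higher and 2 lower, with medians of 0.79 and 0.92.

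The X-linked share of the spermatocytes depended on their depth. In spermatocytes of at least 10000 UMIs it was 0.155% and 0.101%, and in those under 5000 UMIs it was 1.47% and 0.863%. Round spermatids had 1.42% and 1.16% at the higher depth and 1.46% and 1.03% at the lower. Accordingly, 173 of 184 X-linked genes were higher and 0 lower among the deep cells (background 28.1% and 28.9%), whereas 58 were higher and 58 lower of 283 among the shallow cells (background 18.7% and 17.2%). Shallow spermatocytes also held spermatid messages, with Acrv1 at 182 and 157 CPM and Smcp at 417 and 452 CPM, against 35.7 and 10.2 CPM and 46.2 and 86.9 CPM in the deep ones. They differed in meiotic markers of the class as well. Sycp3 was higher in them (841 and 835 CPM against 373 and 471 CPM) and Hspa2 lower (1219 and 1428 CPM against 1901 and 1965 CPM). In a cell under 5000 UMIs, 1 UMI of Ccna1 meets the Ccna1 limit of this class. The part of free RNA or of doublets in the shallow spermatocytes was not tested, nor was the source of their other differences from the deep ones.

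**Figure D3:**
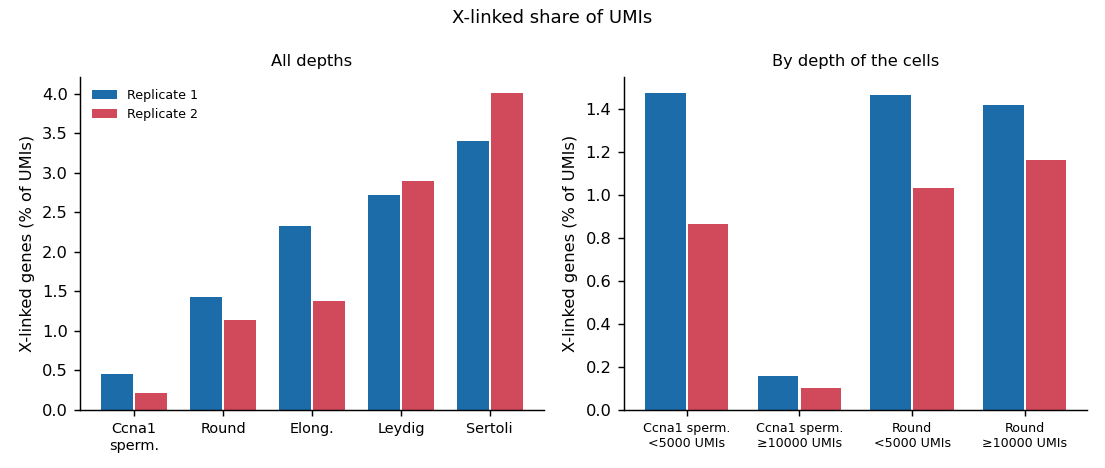
Share of UMIs from X-linked genes (%) in 5 cell classes at all depths (left) and in spermatocytes and round spermatids split by depth (right), with 1 bar per testis library. Round spermatids were at 1.43% and 1.14%, and the deep spermatocytes at 0.155% and 0.101%.

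The depth of the round spermatids had several peaks, as the histogram of UMIs shows. Most cells lay under 5000 UMIs, and further peaks stood at 10000 to 11220 UMIs (168 cells) and 19953 to 22387 UMIs (142 cells) in replicate 1 and at 14125 to 15849 UMIs (48 cells) in replicate 2. Their median was 3969 UMIs in replicate 1 and 2958 in replicate 2. Members under 5000 UMIs were 52.8% and 71.0% of the class and gave 13.9% and 27.3% of its UMIs, and members of at least 10000 UMIs were 36.2% and 21.1% and gave 76.2% and 65.2%. The summed CPM therefore describe mainly the deep cells. Mitochondrial genes took a median of 0.0695% and 0.0677% of the UMIs of the deep members and 0.429% and 0.586% of the shallow ones. The Ccna1 limit acted by depth as well. Of the barcodes that met all other conditions, it kept 83.6% and 80.8% under 2000 UMIs and 38.6% and 42.9% at 7500 to 10000 UMIs. Above 10000 UMIs it kept between 49.6% and 64.0% in replicate 1 and between 39.9% and 44.2% in replicate 2. The shares of Scrublet's highest-scoring barcodes, 9.74% and 9.46% of each library, were 10.7% and 4.59% among the members, and none were removed.

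**Figure D4:**
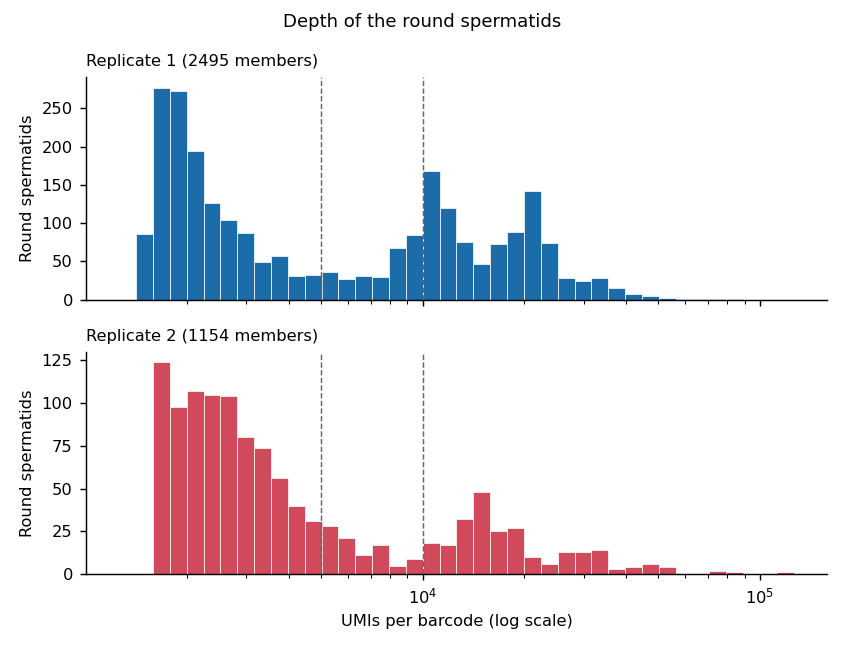
Number of round spermatids by UMIs per barcode (log scale) in the 2 testis libraries, with dashed lines at 5000 and 10000 UMIs. Members under 5000 UMIs made up 52.8% of replicate 1 and 71.0% of replicate 2, and further peaks lay above 10000 UMIs in each.

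Deep and shallow members differed in their transcripts. Of 9302 genes, 14 (0.151%) were at least 2-fold higher in the deep members of both libraries and 1976 (21.2%) in the shallow ones. Genes higher in the deep members included Sf3b4, a splicing factor (254 and 263 CPM against 103 and 107 CPM), Aldoart2 (605 and 515 CPM against 258 and 229 CPM), Fam24b and Slc25a39, and the median length of these 14 genes on the genome was 5.20 kb. Those higher in the shallow members had a median length of 66.9 kb, against 24.9 kb for all genes compared. Fgf14, at 699 kb, stood at 97.3 and 142 CPM in the deep members and 634 and 1455 CPM in the shallow ones. Cftr (152 kb) stood at 69.8 and 91.8 CPM against 373 and 520 CPM, and the nuclear long RNA Malat1 at 614 and 617 CPM against 2733 and 1800 CPM. Over 10 bins of gene length the median difference, deep against shallow, went from 0.27 and 0.35 for the shortest genes to -1.47 and -1.33 for the longest. Shallow members thus held relatively more UMIs of long genes in both libraries. Spliced and unspliced RNA were not told apart in these counts. Mitochondrial mt-Co1 was also higher in them (2342 and 4717 CPM against 403 and 577 CPM), and so was the smooth muscle gene Acta2 (203 and 71.4 CPM against 15.97 and 7.17 CPM). Acta2 was uneven among the shallow members, at only 18.8 and 15.1 CPM under 2000 UMIs. It reached 136 and 123 CPM at 2000 to 3000 UMIs, and 578 and 42.9 CPM at 3000 to 5000 UMIs. The transition protein and protamine share had a median of 0.160% and 0.336% in the deep members and 0.668% and 1.05% in the shallow ones. The part of free RNA and of the mitochondrial share in these differences was not tested.

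**Figure D5:**
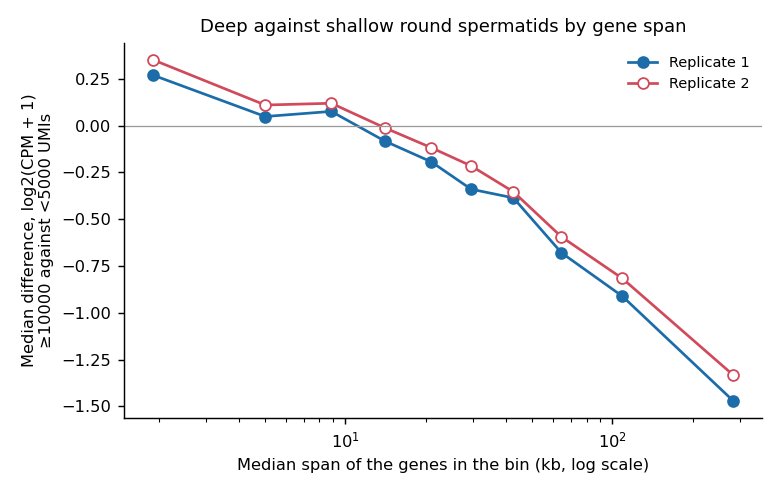
Median difference between round spermatids of at least 10000 UMIs and those under 5000 UMIs, log2(CPM + 1), in 10 bins of genes ordered by length on the genome (kb, log scale), with 1 line per testis library. Both lines run from the shortest bin (0.27 and 0.35) to the longest (-1.47 and -1.33).

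Within the deep members, the share of UMIs from Tnp1, Tnp2, Prm1 and Prm2, which appear late in round spermatid development, was used to order the cells. The quartiles of this share were 0.116% and 0.212% in replicate 1 and 0.276% and 0.469% in replicate 2. Leydig cells had medians of 0.143% and 0.227% and 95th percentiles of 0.287% and 0.476%, so the 2 ranges overlapped. Whether the order follows development was not tested. The highest 25% (226 and 61 cells) were compared with the lowest 25%, at median depths of 15531 and 15735 against 20190 and 17156 UMIs. Of 8302 genes, 752 (9.06%) were higher in the cells with the highest share in both libraries and 479 (5.77%) lower. H2al2a, a histone variant that helps load transition proteins, stood at 272 and 331 CPM against 19.8 and 22.2 CPM, and H2al3 at 139 and 158 CPM against 6.13 and 6.45 CPM. Tssk6 stood at 99.9 and 198 CPM against 5.11 and 17.2 CPM, Cabs1, a calcium-binding sperm protein, at 244 and 398 CPM against 18.8 and 37.3 CPM, and Tuba8, an alpha-tubulin, at 91.2 and 186 CPM against 3.47 and 1.43 CPM. Among the genes lower were Hspa5, the chaperone of the endoplasmic reticulum (47.9 and 55.1 CPM against 162 and 179 CPM), Rfx8 (21.9 and 25.9 CPM against 75.6 and 110 CPM), Slc25a31 and Spag1. Of the lists, late spermatid products were higher for 9 of 24 and lower for 0, whereas 1 of 35 acrosome genes was higher and 0 lower. The 6 markers of the rule differed by under 2-fold between these cells, with Spaca1 at 700 and 795 CPM in the lowest and 945 and 942 CPM in the highest. The order was set by late messages that the rule also used, so these counts are descriptions only, and the part of RNA from elongating spermatids, which held 916 and 1448 CPM of Tssk6, was not tested.

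The 2 testis libraries, which the labels give as replicates, differed in this class. Of 9320 genes, 649 (6.96%) were at least 2-fold higher in replicate 2 and 235 (2.52%) higher in replicate 1, with a median of 0.11. This is 1 library against 1, without a replicate check. With TMM factors the counts were 489 and 337, and the share of calls higher in replicate 2 was 59.2% in place of 73.4%. In the deep members alone they were 423 (4.95%) and 254 (2.97%) of 8539, and in the members under 5000 UMIs 455 (4.18%) and 995 (9.15%) of 10880, so that most calls of the shallow cells were higher in replicate 1. The transition protein and protamine share had a median of 0.375% in replicate 1 and 0.871% in replicate 2, beside 0.143% and 0.227% in the Leydig cells. Intervals of these ratios cover counting error only. Of the rule genes, Prm2 differed most in the deep members, at 318 and 1253 CPM (ratio of replicate 2 to replicate 1, 3.95, exact 95% Poisson interval 3.803 to 4.092). Acrv1 had a ratio of 0.801 (interval 0.772 to 0.831) in the deep members, 1.21 (1.15 to 1.27) in those under 5000 UMIs and 0.987 (0.960 to 1.02) in all, so its direction turned with depth. Chd5 turned the other way, from 1.37 (1.27 to 1.48) in the deep to 0.791 (0.718 to 0.871) in the shallow members. Tex36 had ratios of 1.56 (1.52 to 1.61) and 1.22 (1.14 to 1.31). Tnp2 had a ratio of 2.45 (interval 2.37 to 2.53) and Prm1 of 2.13 (2.07 to 2.19), whereas in the members under 5000 UMIs these were 1.72 (1.66 to 1.79) and 1.17 (1.13 to 1.20). The rule used all of these genes, so their levels are descriptions. Prm2 was also higher in replicate 2 in the Leydig cells (283 and 1472 CPM) and the spermatocytes (210 and 817 CPM), so its gap was not limited to round spermatids. Prm1 was higher in replicate 2 in the Leydig cells (686 and 1380 CPM) and the spermatocytes (503 and 975 CPM). In the Sertoli cells (2100 and 1560 CPM) and the elongating spermatids (66250 and 54243 CPM), Prm1 was higher in replicate 1.

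The gene furthest above in replicate 2 was Rag1, the recombinase of immune cells, with 6 UMIs in replicate 1 and 467 in replicate 2 (0.278 and 59.0 CPM, ratio 212, interval 96.9 to 582). In the elongating spermatids Rag1 had 0 and 10.1 CPM. Lcn2, a secreted lipocalin, followed at 1.34 and 59.5 CPM (ratio 44.3, interval 30.5 to 66.9). In replicate 2, Lcn2 was at 2511 CPM in the Leydig cells, and Fabp3 (17.6 and 140 CPM in the round spermatids) was at 11203 CPM there, so both stood higher in the Leydig cells of the same library. Pcdh9 (8.00 and 193 CPM) and Cwc22 (4.44 and 90.4 CPM) were also among the 10 genes furthest above. Cwc22 was higher in replicate 2 in every other class too, as in the Leydig cells (12.3 and 108 CPM) and the Sertoli cells (26.1 and 232 CPM). In the opposite direction, Hist2h2aa1 (171 and 6.69 CPM), Sap18 (430 and 26.5 CPM) and Gm10076 (499 and 53.8 CPM) stood out. Each of these was higher in replicate 1 in every other class too, with Sap18 at 184 and 54.4 CPM in the Leydig cells. Hist2h2aa1 and Gm10076 have near-identical copies elsewhere in the genome, and their counts are uncertain. Of the 235 genes higher in replicate 1, 73.9% of those above 10 CPM in elongating spermatids, 57.3% in spermatocytes, 53.0% in Sertoli cells and 47.8% in Leydig cells differed in the same way. For the 649 genes higher in replicate 2, these shares were 22.5%, 21.8%, 11.8% and 17.1%, in the same order. Over all genes above 10 CPM, 27.8%, 6.07%, 15.1% and 16.4% were at least 2-fold higher in replicate 1 in these 4 classes, and 6.19%, 1.67%, 4.42% and 4.39% in replicate 2, so the shares among the called genes were above these backgrounds in each class. Ribosomal protein genes were higher in replicate 1 for 17 of 86 and in replicate 2 for 0 (19 of 85 with TMM factors).

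Markers of other cell types were low in the round spermatids as a whole. The 6 macrophage markers summed to 31.1 and 29.3 CPM, with Lyz2 (13.4 CPM in replicate 1) and C1qa (11.4 CPM in replicate 2) the most abundant, and the 4 endothelial markers to 5.37 and 8.59 CPM. The 5 Leydig markers summed to 61.5 and 137 CPM, against 9410 and 15893 CPM in the Leydig cells, led by Cyp11a1 (20.3 CPM) in replicate 1 and Cyp17a1 (74.4 CPM) in replicate 2. The 6 Sertoli markers summed to 45.8 and 30.2 CPM, mostly from Aard, and Amh was at 0.0925 CPM in replicate 1 and at 0 in replicate 2. The Sertoli and Leydig lists thus stayed far below their levels in the cells that define them. The 6 spermatogonial markers summed to 72.8 and 42.4 CPM (Gfra1, 24.8 and 16.4 CPM), the 3 myoid markers to 57.5 and 29.3 CPM (Acta2), and the 5 erythroid markers to 20.5 and 2.27 CPM, with Hbb-bt at 0 in replicate 2. Some of these markers differed between the classes. C1qa had 0.253 and 0.460 CPM in the spermatocytes and 1.94 and 2.41 CPM in the elongating spermatids, and was higher in the round spermatids (10.5 and 11.4 CPM) than in both. Gfra1 was higher than in both as well, and Acta2, Cyp11a1, Cyp17a1 and Insl3 were higher than in the elongating spermatids. Nearly all of these sums moved with depth. In replicate 1 the myoid markers summed to 252 CPM in the shallow and 17.7 CPM in the deep members, the macrophage markers to 112 and 8.56 CPM, the erythroid markers to 112 and 6.07 CPM, the Sertoli markers to 117 and 27.6 CPM and the Leydig markers to 80.1 and 29.8 CPM. In replicate 2 the myoid markers summed to 83.0 and 9.49 CPM and the Sertoli markers to 75.1 and 11.04 CPM, while the Leydig markers were lower in the shallow members (43.1 and 65.9 CPM). Their part in the differences between classes and between deep and shallow members was not tested.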

How the data were processed

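Cells of 2 TO and 2 testis libraries were measured by 10x Genomics 3' v3.1 scRNA-seq. The authors made the matrices with Cell Ranger 7.1.0, and the submitters' processing notes name mm10. The deposited values are raw UMI counts per gene and barcode, not normalized. All columns were mapped to a sample (0 were not used). Round spermatids were cut from the testis matrices by the stated rule, without the upper limits on genes and UMIs and without the doublet removal that the study applied. The members and gene lists were chosen with earlier results of these data known. Gene positions came from GENCODE vM21 (GRCm38), which held 32235 of 32285 gene IDs, and promoters from RefSeq (GRCm38.p6).

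Counts were summed per library and class and scaled to CPM. Each gene with at least 10 CPM in either class in both libraries was called at 2-fold or more in the same direction in both, on log2(CPM + 1). No test was run, because the classes were cut from the expression of the same cells and the 2 testis libraries form 1 group. On sums simulated with counting error only, the steps recovered nearly all genes that had been changed 4-fold. Changes near 2-fold, free RNA, doublets and differences in depth were not simulated, so the calls at 2-fold were not checked in this way. Named genes were taken from the rule genes, the list members and the 20 most abundant genes. They were also taken from the 15 and 15 genes furthest from the spermatocytes. The 10 and 10 furthest from the elongating spermatids and between libraries were used as well. These furthest genes needed at least 50 CPM in the higher class. Many genes chosen in this way, such as the abundant Gstm5 and Ubb, are not described in the text. Genes of the comparisons by depth and by protamine share, and those of the TO barcodes, were picked after their values were seen. The summed counts of the round spermatids were 21614732 and 7918942 UMIs. TMM factors came from edgeR 4.0.16 in R 4.3.3 and doublet scores from Scrublet in scanpy 1.11.5, and the rest was computed in Python 3.11.15 (pandas 2.3.3, numpy 2.4.6, scipy 1.17.1). Alternatives were other rules, floors, folds, scalings, depths and single libraries.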

Additional observations from a re-analysis of the deposited data

Results flagged for a closer look

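In TO replicate 2, which the comparisons above do not use, 10 of 10953 passing barcodes met the round spermatid rule (0.0913%, exact 95% Clopper-Pearson interval 0.0438 to 0.168), above the 0.0274% that a count of 0 allows. TO replicate 1 had 2 of 12001, under the 0.0250% that a count of 0 allows there. These limits cover counting error only, and the rate at which other barcodes meet the rule was not measured. The 10 barcodes had a median of 3902 UMIs (1706 to 15004) and a median marker sum of 24.3 UMIs per 10000, and 7 of them had exactly 4 markers. Of genes that the rule did not use, Spink2 stood at 2422 CPM in them, against 96.7 CPM over all passing barcodes of that library, Meig1 at 3423 against 217 CPM, Crem at 480 against 40.4 CPM and Sycp3 at 240 against 150 CPM. Spink2 and Meig1 were as high in the testis spermatocytes, so they do not set these barcodes apart as round spermatids. Their median share of transition protein and protamine UMIs was 0, and none of their barcodes was shared with a testis round spermatid.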

How the results depend on the processing

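No paired analysis was possible because no result comes from a test, and classes were compared within each library. Of 105 values under an alternative, 78 stayed near the reported value and 27 moved. The balance of calls did turn. Against the spermatocytes, where 2577 were higher and 2472 lower, lower calls were more frequent without the highest Scrublet scores (2604 higher, 2611 lower), at no more than 5000 genes and 20000 UMIs (2360 and 2527), in cells of at least 10000 UMIs (2583 and 2659), at a marker sum of at least 10 (2591 and 2720) and without replicate 2. Between libraries, members under 5000 UMIs had 455 genes higher in replicate 2 and 995 in replicate 1. The settings on depth and marker sum were chosen after seeing the data. With at least 3 markers the class held 3831 and 1820 cells, with at least 5 markers 1608 and 670, and without the Ccna1 limit 3746 and 1828. With less than 1% of transition protein and protamine UMIs replicate 2 held 673. Against the spermatocytes, 4054 genes were higher at a floor of 1 CPM, 1209 higher and 1035 lower at 50 CPM, and 578 lower at 4-fold. Against the elongating spermatids, 6507 were higher at 1 CPM, 1616 higher and 433 lower at 50 CPM, 1601 and 1260 with TMM factors, and 1439 and 356 at 4-fold. Without replicate 1 or replicate 2, 3426 and 2736 genes were higher and 3043 and 3097 lower than in the spermatocytes, and 5953 and 4531 were higher and 884 and 1495 lower than in the elongating spermatids. Between libraries, 1111 were higher in replicate 2 and 502 in replicate 1 at 1 CPM, 185 and 75 at 50 CPM, 376 in replicate 1 with per-cell means, and 423 in replicate 2 among members of at least 10000 UMIs. Among cells under 5000 UMIs, 1506 of the 2577 genes higher than in the spermatocytes and 1025 of the 2472 lower kept their call. The transition protein and protamine share, a median of 0.623% ± 0.351 (SD, n = 2), was 0.248% in members of at least 10000 UMIs. The X-linked share, 1.28% ± 0.206 (SD, n = 2), stayed between 1.25% and 1.30% over all alternatives except single libraries. With 2 libraries of 1 group, the spread between animals could not be measured, and shallow cells limit what was detected per cell. The cause of these shifts was not tested.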
